A study of Arabidopsis thaliana with 15 samples.

Results

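Roots held on naxillin for 6 h were compared with roots held on it for 2 h, in 3 arrays per time point, which is 6 of the 15 arrays of the series. The arrays were chosen by their labelled compound and exposure time, not by a measured value. The comparison itself was set with earlier results of these data known. The plants were Arabidopsis thaliana of the ecotype Col-0, and all samples were roots from a system in which lateral roots are induced on demand. Seeds germinated on 10 µM NPA, which blocks polar auxin transport, and at 3 days after germination seedlings went to 50 µM naxillin or to 10 µM NAA, a synthetic auxin. The 5 groups of 3 arrays were roots before treatment (NPA, 0 h), naxillin 2 h, naxillin 6 h, NAA 2 h and NAA 6 h. Each sample pooled 500 root sections cut without their meristems, and the 3 arrays of a group came from independent experiments. No mock transfer was made, so that exposure to naxillin, the transfer and the hours elapsed cannot be told apart in a change between 2 h and 6 h. Values are log2 expression values of probe sets on ATH1 arrays, a log2 change of 1 being 2-fold, and the number of arrays limits their precision.

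Lateral roots start when pericycle cells next to the xylem poles respond to auxin and divide. Auxin releases auxin response factors from Aux/IAA repressors, and these factors switch on transcription factors of the LBD family, among them LBD16 and LBD29, followed by PUCHI. Auxin also switches on GH3 enzymes, which join auxin to amino acids and so lower its active level. Naxillin is a synthetic inducer of lateral roots that does not itself act as an auxin and is known to promote the conversion of the auxin precursor indole-3-butyric acid.

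The 6 arrays were alike over all probe sets, with Pearson correlations across probe sets of 0.982 to 0.994 between the times. Naxillin 6 h replicate 3 lay farthest from its group, with a root mean square deviation from the group mean of 0.242 log2 against 0.118 to 0.201 for the other 5 naxillin arrays. Results that rest on it are therefore given without it below. Labelled tissue could be checked in part: of the root hair markers, EXPA7 and EXPA18 were measured at 6.88 to 9.32 in the 6 arrays, whereas the markers written for endodermis, xylem, phloem and root tip had no named probe set. The 11 photosynthesis genes, written as a marker of shoot tissue, had array means of 7.92 to 8.51 at 2 h, 8.21 to 8.75 at 6 h and 8.72 to 9.03 before treatment. A part of shoot tissue in the results was not tested. In such pooled sections fewer cells of a type and less RNA per cell cannot be told apart.

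Between 2 h and 6 h of naxillin, the auxin-conjugating enzymes GH3.1 and WES1 and the lateral root transcription factors LBD29 and PUCHI rose, by 1.78-fold to 3.01-fold. The repair enzyme MSRB9, the stress protein gene LEA4-5 and the cell wall enzymes XTH21 and XTH18 fell by 3.29-fold to 5.39-fold, from values at 2 h that stood above those before treatment. Of 22746 probe sets, 520 were called at an adjusted p under 0.05 (limma's moderated test, Benjamini-Hochberg), which is 2.29% of those tested, and 3286 had an unadjusted p under 0.05. The calls were 185 higher at 6 h (0.813%) and 335 lower (1.47%). Most were modest in size: the median called rise was 0.60 log2 and the median called fall was -0.72 log2, and 26 rises and 90 falls reached 2-fold. Among the called probe sets with exactly 1 gene, 262 genes were called, 91 higher and 171 lower. The median change of all probe sets was 0.0013 log2. In 3918 probe sets (17.2%) the 3 arrays at 6 h did not overlap the 3 arrays at 2 h, 2026 of them higher and 1892 lower, and 519 of the 520 called probe sets were among them. Of GH3.1, WES1, LBD29, PUCHI, MSRB9, LEA4-5, XTH21 and XTH18, only GH3.1 and XTH21 were also called on the 6 naxillin arrays alone. Leaving out single naxillin arrays ended the calls of WES1, LBD29, PUCHI, LEA4-5 and XTH18.

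The total rests on the fit that shares 1 estimate of the spread among all 15 arrays: fitted on the 6 naxillin arrays alone, 44 probe sets were called, 9 higher and 35 lower. Without 1 array the count ranged from 198, without naxillin 2 h replicate 3, to 574. It was 222 without naxillin 2 h replicate 2 and 221 without naxillin 6 h replicate 1. Scaling by the spiked-in poly-A control transcripts moved the median change of all probe sets to -0.14 log2 and the split to 76 higher and 1094 lower.

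**Figure D1:**
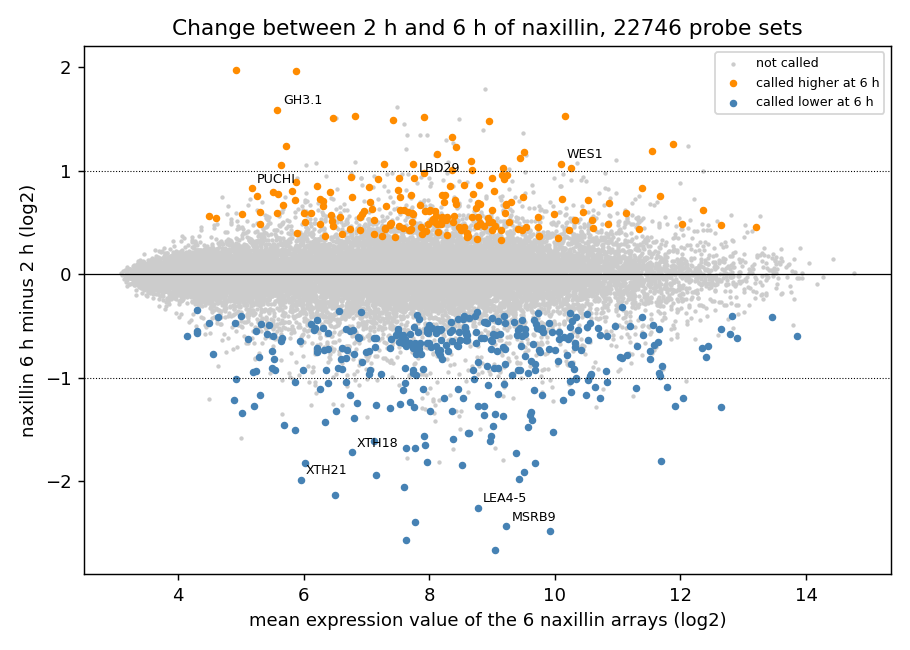
Change between 2 h and 6 h of naxillin (vertical axis, log2; above 0 is higher at 6 h) against the mean expression value of the 6 naxillin arrays (horizontal axis, log2), 1 point per probe set. Orange points are the 185 probe sets called higher and blue points the 335 called lower; dotted lines mark 2-fold, which 26 of the rises and 90 of the falls passed.

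The auxin-conjugating GH3 enzymes held 2 of the 12 largest rises among named genes. GH3.1 was at 4.77, 5.07 and 4.52 in the 3 arrays at 2 h and at 6.48, 6.28 and 6.37 at 6 h. The groups lay well apart, and the 2 h arrays lay close to those before treatment (4.81, 5.05 and 4.46). GH3.1 rose by 1.59 ± 0.18 log2 (SE), 3.01-fold, with an adjusted p of 0.00119 in limma's test. WES1, also called GH3.5, which conjugates auxin and salicylic acid, was at 10.26, 9.40 and 9.02 at 2 h and at 10.65, 10.78 and 10.45 at 6 h. The groups did not overlap, but the highest 2 h array came close to the lowest 6 h array. WES1 rose by 1.07 ± 0.25 log2 (adjusted p = 0.0387). Of the 5 measured GH3 genes 2 were called higher and 0 lower, and the median change was 0.73 log2 against 0.0013 for all probe sets and a background of 0.813% called higher. All gene lists were written with earlier results of these data known, so that list counts beside such shares are descriptions only. GH3.3, another auxin-conjugating member, changed by 0.73 ± 0.34 log2 (adjusted p = 0.354), GH3.17 by 0.07 and GH3.9 by -0.11. The call of WES1 was lost without naxillin 2 h replicate 2 (adjusted p = 0.144), 2 h replicate 3 (0.157), 6 h replicate 1 (0.117), 6 h replicate 2 (0.116) or 6 h replicate 3 (0.0568). That of GH3.1 remained in each of those fits.

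Of 4 measured regulators of lateral root initiation (11 were written), 2 were called higher and 0 lower, against 0.813% of all probe sets called higher. This list, too, was written with earlier results of these data known. LBD29, an LBD transcription factor downstream of auxin response factors, was at 7.23, 7.15 and 7.48 at 2 h and at 8.12, 8.06 and 8.48 at 6 h. All 6 h arrays exceeded all 2 h arrays, and the rise was 0.93 ± 0.20 log2 (adjusted p = 0.0277). PUCHI, an AP2 family transcription factor that shapes the early primordium, was at 5.03, 4.60 and 4.64 at 2 h and at 5.88, 5.45 and 5.42 at 6 h. It rose by 0.83 ± 0.18 log2 (adjusted p = 0.0305), and its 2 h arrays sat at the level before treatment (4.89, 4.68 and 4.74). The other 2 measured lateral root regulators were not called: LBD16 changed by 0.25 ± 0.13 log2 (adjusted p = 0.417) and CR4, a receptor kinase that limits founder cell divisions, by 0.02. The median of the 4 was 0.54 log2. Each call needed nearly all arrays. LBD29 lost it without naxillin 2 h replicate 1 (adjusted p = 0.0613), 2 h replicate 2 (0.111), 2 h replicate 3 (0.0526), 6 h replicate 1 (0.0709) or 6 h replicate 3 (0.0804). PUCHI lost it without naxillin 2 h replicate 2 (0.126), 2 h replicate 3 (0.123), 6 h replicate 1 (0.127) or 6 h replicate 2 (0.0514).

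Of 28 Aux/IAA repressors written, 7 were measured. These 7 had 0 called changes in limma's test, beside 2.29% of all probe sets, a share at which so short a list may hold none. Their median was -0.06 log2 and their range -0.30 to 0.23, with 1 of them at an unadjusted p under 0.05. Array means of the 7 were low, at 5.39 to 5.65 in the naxillin arrays, where the medians of all probe sets were 7.08 to 7.15. IAA18 had the smallest p of them, with 9.11, 9.16 and 9.19 at 2 h and 8.76, 9.05 and 8.76 at 6 h. Its difference was -0.30 ± 0.09 log2 (adjusted p = 0.135). IAA34 differed by 0.16 log2 (adjusted p = 0.375). AIM1, a peroxisomal beta-oxidation enzyme, was at 11.22, 11.32 and 11.18 at 2 h and at 11.26, 11.28 and 11.25 at 6 h, groups that overlapped, with a change of 0.03 ± 0.07 log2. It was the 1 measured gene of 17 written for peroxisomal beta-oxidation and indole-3-butyric acid conversion. The type-A cytokinin response regulators RR16 and ARR15 both differed by under 0.02 log2, and the clock gene GI by 0.08, none of them called. GI was the 1 measured gene of 20 written for the clock.

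**Figure D2:**
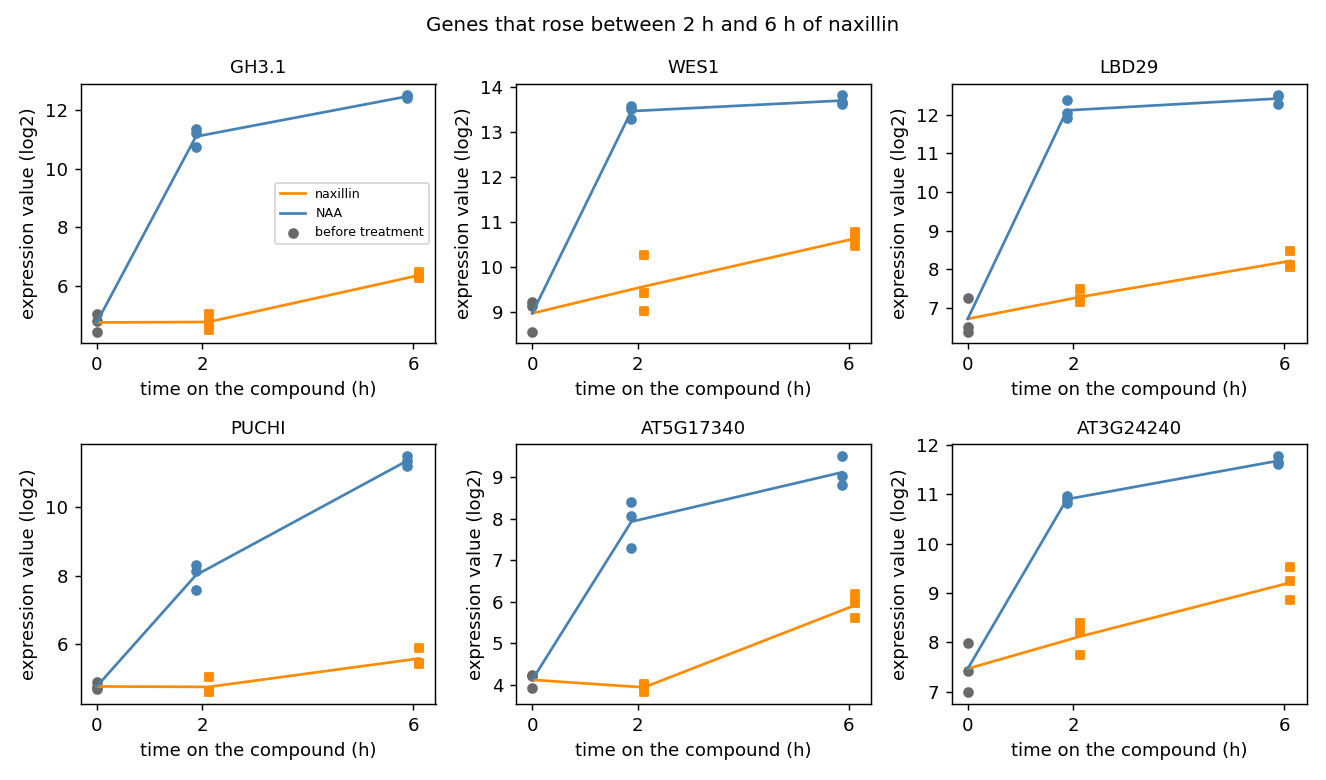
Expression values (vertical axis, log2) of GH3.1, WES1, LBD29, PUCHI, AT5G17340 and AT3G24240 before treatment (grey), with naxillin (orange squares) and with NAA (blue circles) at 2 h and 6 h; points are single arrays and lines join group means. Each gene is higher at 6 h than at 2 h of naxillin, and at both times every naxillin array lies below every NAA array of that time.

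The largest rise of all named genes was that of AT5G17340, a locus without a symbol in the annotation. It was at 3.97, 4.03 and 3.82 at 2 h, near the lower end of the scale, and at 5.96, 5.60 and 6.17 at 6 h. The change was 1.97 ± 0.24 log2, 3.92-fold (adjusted p = 0.00182). AT3G24240 went from 7.74, 8.21 and 8.39 to 9.25, 8.86 and 9.52, a rise of 1.10 ± 0.23 log2 (adjusted p = 0.0234). With GH3.1, WES1 and LBD29 these loci were also above the level before treatment at 6 h, where AT5G17340 stood 1.79 log2 higher (adjusted p = 0.00615) and AT3G24240 1.75 log2 higher (adjusted p = 0.00456). Counts of that comparison were 219 called probe sets (0.963%) at 6 h and 2402 (10.6%) at 2 h, with the arrays before treatment shared by both.

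A second set among the 12 largest rises was low at 2 h and near the level before treatment at 6 h. BGLU46, a beta-glucosidase that acts on monolignol glucosides, was at 9.37, 9.01 and 8.25 at 2 h, at 9.96, 10.21 and 9.83 at 6 h and at 10.25, 9.90 and 10.25 before treatment. Its rise was 1.12 ± 0.24 log2 (adjusted p = 0.0295), from a 2 h mean that lay 1.26 log2 under the level before treatment. AT1G02810, written in the pectin methylesterase list, went from 7.24, 7.58 and 6.82 to 8.35, 7.86 and 8.61, with 8.75, 8.63 and 9.09 before treatment. It rose by 1.06 ± 0.24 log2 (adjusted p = 0.0338) and was the 1 called member of 42 in that list, a share near the 2.29% of all probe sets called. The median of the 42 was -0.07 log2, and at an unadjusted p under 0.05 there were 1 higher and 8 lower, beside 3286 of all 22746 probe sets. Array means of the 42 were low, at 5.33 to 5.56 in the naxillin arrays. AT1G61590 rose by 1.03 and AT1G08670 by 1.06 log2, and at 6 h they were -0.22 and -0.23 log2 from their means before treatment. AT1G62770, at 8.70, 8.45 and 7.46 at 2 h and at 9.84, 9.77 and 9.45 at 6 h, rose by 1.48 ± 0.24 log2 (adjusted p = 0.00817). AT2G36690 rose by 1.51 log2 (adjusted p = 0.00704). AT4G10270 rose by 1.24 log2 and AT5G67430 by 1.16 (adjusted p = 0.00949 and 0.00704), and both ended above the mean before treatment, by 0.79 and 0.40 log2, without a call in that comparison. The arrays at 2 h stand in both differences, so that a low 2 h value raises the one and lowers the other.

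Leaving out arrays ended some of these calls. BGLU46 lost its call without naxillin 2 h replicate 2 (adjusted p = 0.0719), 2 h replicate 3 (0.0938), 6 h replicate 1 (0.0848) or 6 h replicate 2 (0.0969). AT1G02810 lost it without 2 h replicate 1 (0.061), 2 h replicate 3 (0.150), 6 h replicate 1 (0.113) or 6 h replicate 3 (0.0907). AT1G61590 did so without 2 h replicate 2 (0.0731), 2 h replicate 3 (0.111), 6 h replicate 1 (0.106) or 6 h replicate 2 (0.083). For AT1G08670 the arrays were 2 h replicate 2 (0.0514), 2 h replicate 3 (0.0966), 6 h replicate 1 (0.0745) and 6 h replicate 2 (0.0594). For AT3G24240 they were 2 h replicate 1 (0.0629), 2 h replicate 2 (0.0629), 6 h replicate 1 (0.0805) and 6 h replicate 3 (0.0714). Calls of AT5G17340, AT2G36690, AT1G62770, AT4G10270 and AT5G67430 remained in all 6 fits without 1 naxillin array.

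**Figure D3:**
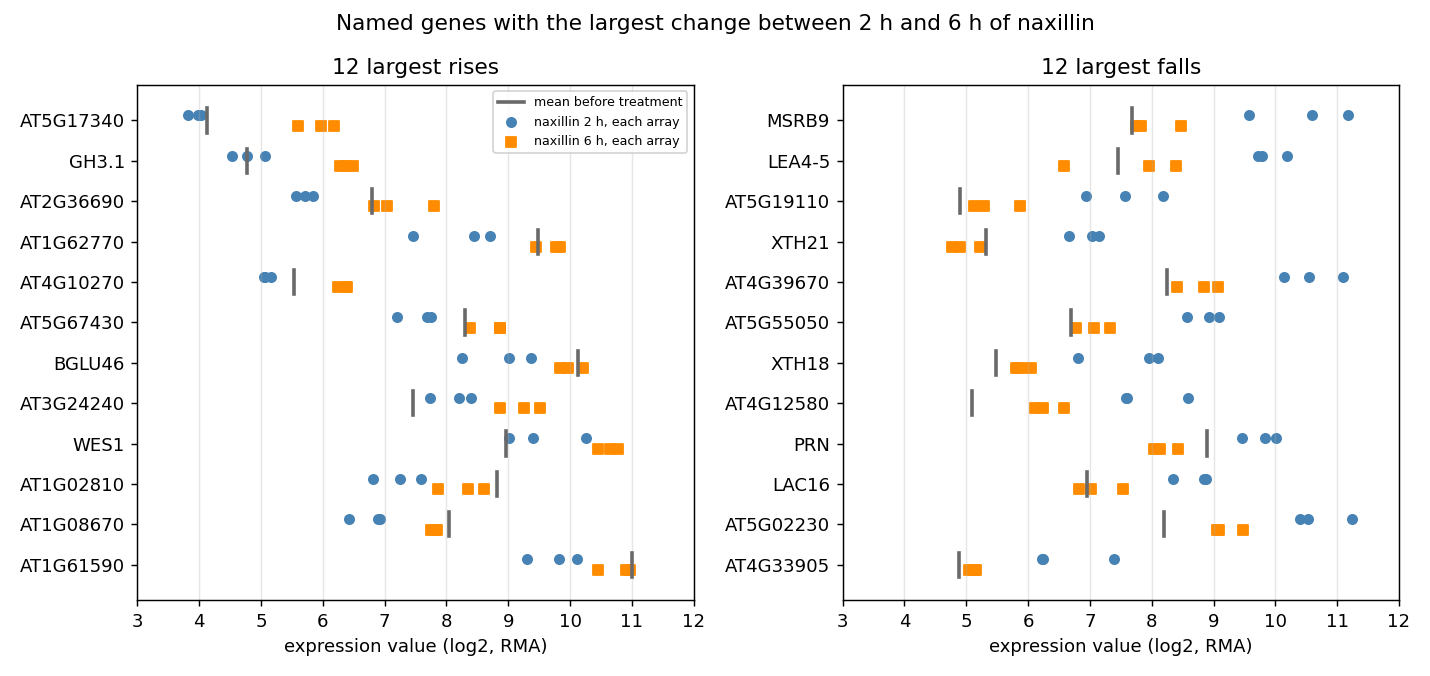
Expression values (horizontal axis, log2) of the named genes with the 12 largest rises and the 12 largest falls, with each array at 2 h (blue circles) and at 6 h (orange squares) of naxillin and the mean before treatment (grey bar). The 2 times do not overlap for any of the 24 genes, a condition of their choice; for AT1G62770, BGLU46, LEA4-5 and LAC16 the orange squares lie on both sides of the grey bar.

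The largest falls exceeded the largest rises. MSRB9, a methionine sulfoxide reductase, which repairs oxidised methionine in proteins, was at 9.57, 10.59 and 11.17 at 2 h and at 7.82, 7.75 and 8.47 at 6 h. Before treatment it was at 7.32, 7.61 and 8.13. It fell by 2.43 log2 (SE 0.40), 5.39-fold, with an adjusted p of 0.00845. LEA4-5, a late embryogenesis abundant protein that accumulates under water shortage, was at 10.19, 9.73 and 9.78 at 2 h and at 7.96, 8.39 and 6.59 at 6 h. Before treatment it was at 6.66, 7.87 and 7.83, so that the 6 h arrays reached both below and above that range, and it fell by 2.25 log2 (SE 0.49, adjusted p = 0.0305). PRN, a pirin that takes part in seed germination and early seedling growth, went from 9.46, 9.83 and 10.01 to 8.13, 8.04 and 8.43, a fall of 1.56 log2 (SE 0.27, adjusted p = 0.00969). LAC16, a laccase, an apoplastic oxidase of phenolic compounds, went from 8.34, 8.89 and 8.84 to 7.03, 7.53 and 6.83, also a fall of 1.56 log2 (SE 0.34, adjusted p = 0.0303). LEA4-5 lost its call without naxillin 2 h replicate 1 (adjusted p = 0.0715), 2 h replicate 2 (0.0828), 2 h replicate 3 (0.0889), 6 h replicate 1 (0.0714) or 6 h replicate 3 (0.0794). LAC16 lost it without 2 h replicate 2 (0.116), 2 h replicate 3 (0.116), 6 h replicate 1 (0.104) or 6 h replicate 3 (0.0813).

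The cell wall supplied further falls. XTH21, an enzyme that cuts and rejoins xyloglucan chains, was at 6.66, 7.03 and 7.14 at 2 h and at 4.91, 4.76 and 5.22 at 6 h, under all 3 arrays before treatment (5.36, 5.27 and 5.30). It fell by 1.98 log2 (SE 0.15), 3.95-fold, with an adjusted p of 0.000111. XTH18, of the same family, went from 6.80, 8.10 and 7.96 to 5.86, 6.05 and 5.80 and fell by 1.72 log2 (SE 0.30, adjusted p = 0.0105). EXLA2, an expansin-like protein, went from 6.04, 5.90 and 5.95 to 5.22, 5.47 and 5.37 and fell by 0.61 log2 (SE 0.12, adjusted p = 0.016). Of the 28 measured XTH enzymes and expansins, which loosen walls, 0 were called higher and 3 lower against 1.47% of all probe sets called lower, and 22 of the 28 had a negative sign. Their median change was -0.34 log2 with a range of -1.98 to 0.29. The root hair expansins were not called: EXPA18 was at 8.70, 9.32 and 8.00 at 2 h and at 7.81, 7.66 and 6.88 at 6 h, a difference of -1.22 ± 0.30 log2 (adjusted p = 0.0552). EXPA7 differed by -0.76 ± 0.29 log2 (adjusted p = 0.233). EXPA18 was called without naxillin 2 h replicate 3 (adjusted p = 0.030). XTH18 lost its call without 2 h replicate 2 (0.051) or 2 h replicate 3 (0.0521), and EXLA2 without 2 h replicate 3 (0.0549) or 6 h replicate 1 (0.0751).

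Few other pectin enzymes were called. The 44 polygalacturonases, which cut pectin, had a median of -0.05 log2 and 2 called falls, against 1.47% of all probe sets called lower. Their array means were low, at 5.15 to 5.32 in the naxillin arrays, where the medians of all probe sets were 7.08 to 7.15. AT4G33440 went from 7.91, 8.21 and 8.16 to 7.50, 7.40 and 7.71, a fall of 0.56 log2 (SE 0.10, adjusted p = 0.0111). AT1G02460 went from 6.49, 6.35 and 6.21 to 5.98, 5.75 and 5.88, a fall of 0.48 log2 (SE 0.10, adjusted p = 0.0246). Groups of both loci lay apart. The 23 pectate lyases had 0 called changes, beside 2.29% of all probe sets, and a median of -0.09 log2. At an unadjusted p under 0.05 there were 0 of them, beside 3286 of all 22746 probe sets. AT1G11920 (-0.19 log2, adjusted p = 0.453) and AT3G53190 (-0.28 log2, adjusted p = 0.516) had the smallest p among them. In the naxillin arrays the pectate lyase array means were 5.49 to 5.77, and AT1G11920 was at 3.88 to 4.32. Changes of members near the lower end of the scale could be missed. None of the 55 class III peroxidases, which act on the wall with hydrogen peroxide, was called in limma's test, beside 2.29% of all probe sets. Single members ranged from -1.29 to 1.27 log2. At an unadjusted p under 0.05 were 3 higher and 10 lower, beside 3286 of all 22746 probe sets. Of the peroxidases AT5G51890 differed by 0.33 ± 0.08 log2 (adjusted p = 0.0551) and AT5G17820 by -0.73 ± 0.19 log2 (adjusted p = 0.0599, and 0.0477 without naxillin 6 h replicate 1). AT4G33440 lost its call without naxillin 2 h replicate 2 (0.0539) or 2 h replicate 3 (0.0523). AT1G02460 lost it without 2 h replicate 1 (0.0669), 2 h replicate 2 (0.0801), 6 h replicate 2 (0.0902) or 6 h replicate 3 (0.0581).

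Of 18 detoxification enzymes, 0 were called higher and 2 lower, against 1.47% of all probe sets called lower. Both were glycosyltransferases, which attach sugars to foreign and stress-related compounds. UGT73B4 was at 11.05, 11.70 and 11.54 at 2 h and at 10.47, 10.76 and 10.66 at 6 h, a fall of 0.80 log2 (SE 0.16, adjusted p = 0.0193). UGT73B5 was at 10.77, 10.81 and 10.77 at 2 h and at 10.10, 10.26 and 9.81 at 6 h, a fall of 0.73 log2 (SE 0.17, adjusted p = 0.036). UGT73B4 remained above its arrays before treatment (10.50, 10.00 and 10.11) in 2 of the 3 arrays at 6 h, whereas UGT73B5 overlapped its range before treatment. The other members, mostly glutathione transferases, were not called, and the median of the 18 was -0.18 log2. UGT73B4 lost its call without naxillin 2 h replicate 2 (adjusted p = 0.0856), 2 h replicate 3 (0.0816) or 6 h replicate 1 (0.0836). UGT73B5 lost it without 2 h replicate 1 (0.0651), 2 h replicate 2 (0.117), 2 h replicate 3 (0.110), 6 h replicate 1 (0.0947) or 6 h replicate 3 (0.0983).

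Of 14 genes of touch and wounding written, 6 were measured, and all 6 were lower at 6 h in sign. WRKY6, a transcription factor of senescence and defence, was at 10.32, 10.28 and 10.52 at 2 h and at 9.72, 9.99 and 9.55 at 6 h. It fell by 0.62 log2 (SE 0.13, adjusted p = 0.0264) and was the 1 called member of 6, against 1.47% of all probe sets called lower. The median of the 6 was -0.49 log2. The calmodulin-like gene CML37 differed by -1.20 ± 0.32 log2 (adjusted p = 0.0723) and the zinc finger gene STZ by -0.49 ± 0.37 (adjusted p = 0.626). The arrays of the 2 times did not overlap in 5 of the 6, all 5 lower at 6 h. Of all 22746 probe sets, 17.2% did not overlap in either direction, and 1892 of these were lower. WRKY6 lost its call without naxillin 2 h replicate 2 (adjusted p = 0.0601), 2 h replicate 3 (0.117), 6 h replicate 1 (0.0916) or 6 h replicate 3 (0.0794).

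The remaining large falls were loci without a symbol. AT5G19110 went from 6.93, 7.56 and 8.18 to 5.28, 5.13 and 5.88 and fell by 2.13 log2 (SE 0.32, adjusted p = 0.00471). AT4G39670 went from 10.55, 10.15 and 11.09 to 8.84, 9.07 and 8.41 and fell by 1.82 log2 (SE 0.23, adjusted p = 0.00235). AT5G55050 went from 8.57, 8.93 and 9.09 to 6.78, 7.33 and 7.06 and fell by 1.81 log2 (SE 0.20, adjusted p = 0.00119). In all 3 loci the 6 h mean lay 0.37 to 0.53 log2 above the mean before treatment. AT4G12580 fell by 1.61 log2 and was still 1.21 log2 above the level before treatment at 6 h (adjusted p = 0.0204). AT5G02230 fell by 1.52 log2 and AT4G33905 by 1.51. Over the 12 largest falls the 2 h means stood 0.88 to 2.82 log2 above the means before treatment, and the 6 h means -0.69 to 1.21 log2 from them, within 1 log2 in 10 of the 12. As these genes were chosen for a high 2 h level, their height above the roots before treatment is a description only. AT5G02230 lost its call without naxillin 2 h replicate 3 (adjusted p = 0.0599) or 6 h replicate 1 (0.0599).

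**Figure D4:**
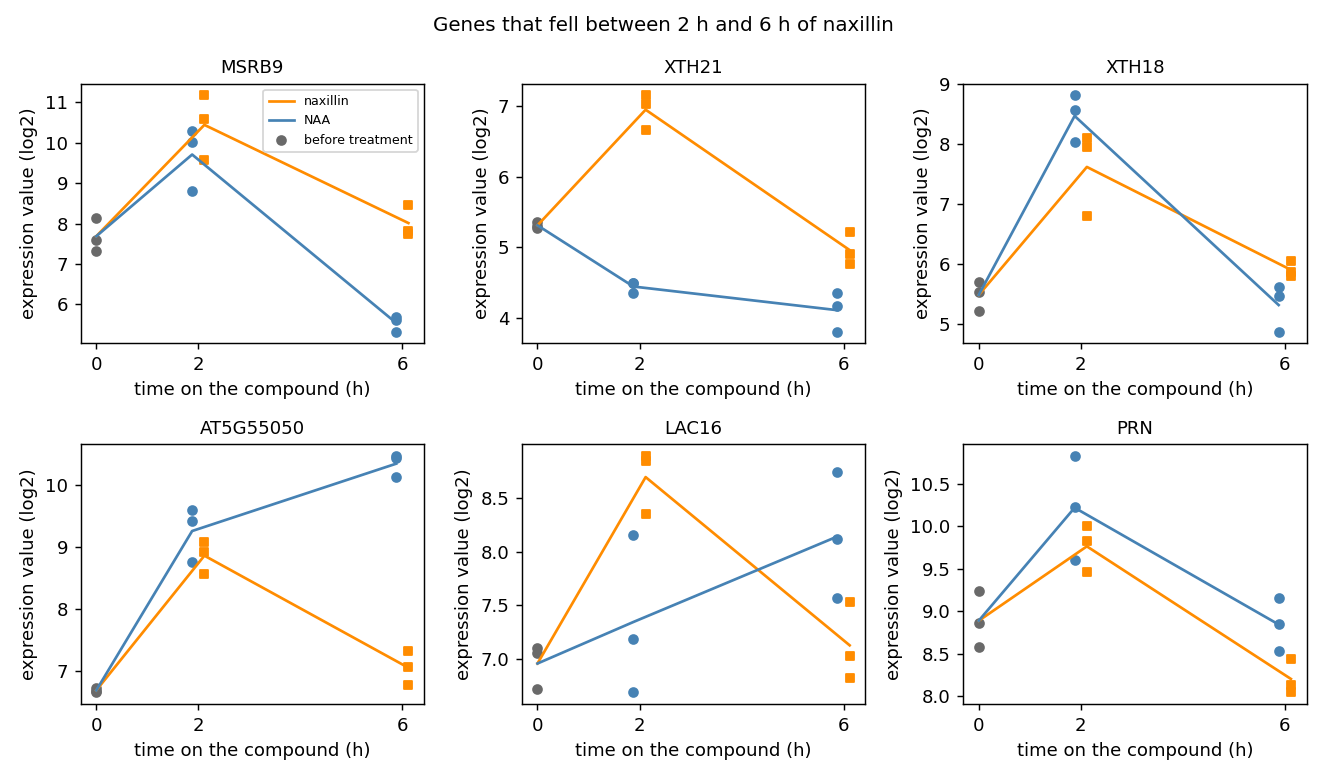
Expression values (vertical axis, log2) of MSRB9, XTH21, XTH18, AT5G55050, LAC16 and PRN before treatment (grey), with naxillin (orange squares) and with NAA (blue circles) at 2 h and 6 h; points are single arrays and lines join group means. With naxillin the mean of each of the 6 genes is highest at 2 h, whereas with NAA the mean of AT5G55050 and that of LAC16 are highest at 6 h.

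No measured gene in the lists of growth and cell division was called between the times in limma's test, beside 2.29% of all probe sets. Lists of these sizes hold few calls or none at such a share. At an unadjusted p under 0.05 stood 3286 of all 22746 probe sets. The 27 measured genes of mitosis had 0 called changes, 0 at an unadjusted p under 0.05, a median of -0.06 log2 and a range of -0.28 to 0.27. Haspin, a kinase that marks mitotic chromosomes, was at 4.91, 4.56 and 4.88 at 2 h and at 4.96, 5.17 and 5.02 at 6 h. Its difference was 0.27 ± 0.13 log2 (adjusted p = 0.376), and that of the mitosis list member AT2G22610 was -0.28 (adjusted p = 0.521). Of 58 DNA replication genes written, 8 were measured. These 8 lay between -0.20 and 0.08 log2 (1 at an unadjusted p under 0.05). ICU2, the catalytic subunit of DNA polymerase alpha, differed by -0.20 ± 0.16 log2 (adjusted p = 0.642). Ribosomal protein genes were slightly lower in sign, with medians of -0.12 log2 over 48 genes of the small subunit and -0.16 over 84 of the large one, and 0 called in either, 1 in each at an unadjusted p under 0.05. For 47 ribosome assembly factors the median was -0.21 log2 with 41 negative signs, 0 calls and 1 member at an unadjusted p under 0.05. Of them AT5G66540 differed by -0.64 ± 0.24 log2 (adjusted p = 0.213) and was called without naxillin 6 h replicate 3 (adjusted p = 0.0229), as was the large subunit member AT2G32220 (-0.69 log2, adjusted p = 0.292, and 0.0464 without that array). The median of DNA replication, 0.0059 log2, turned negative under poly-A scaling, as did the changes of AIM1, GI, DFR, RR16 and ARR15.

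Other metabolic lists had 0 called members in limma's test, beside 2.29% of all probe sets, a share at which lists this short may hold none. Of their genes 1 of photosynthesis, 1 of the low-energy response and 1 of glucosinolate synthesis had an unadjusted p under 0.05, beside 3286 of all 22746 probe sets. These counts cover only the written genes that had a named probe set. Such genes were 11 of 60 for photosynthesis, 6 of 16 for low energy and 2 of 14 for glucosinolates. For iron they were 1 of 8, for flavonoids 1 of 7 and for monolignols 1 of 13. The 11 photosynthesis genes had a median of 0.28 log2 and a range of -0.04 to 0.53, with PSBW, a photosystem II subunit, at 0.36 ± 0.20 (adjusted p = 0.452) and PRK, a Calvin cycle kinase, at 0.33 ± 0.15 (adjusted p = 0.321). The 6 low-energy genes, which break down amino acids, all had a positive sign and a median of 0.43 log2. MCCA, a subunit of the leucine breakdown enzyme methylcrotonyl-CoA carboxylase, was at 10.44, 9.11 and 9.00 at 2 h and at 10.68, 11.34 and 9.33 at 6 h. Its groups overlapped, and the difference was 0.93 ± 0.47 log2 (adjusted p = 0.397). D2HGDH, another mitochondrial enzyme of that list, differed by 0.34 ± 0.15 (adjusted p = 0.333). BCAT4, which starts the chain elongation of methionine for glucosinolates, was at 10.72, 11.21 and 11.97 at 2 h and at 10.19, 9.09 and 10.77 at 6 h, a difference of -1.28 ± 0.53 log2 (adjusted p = 0.27) with overlapping groups, and the glucosinolate list's other member, AT2G31790, differed by -0.52 (adjusted p = 0.619). The iron regulator BHLH101, the flavonoid enzyme DFR and the lignin enzyme HCT differed by -0.27, 0.11 and -0.03 log2.

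The same interval with NAA gave far more calls: 9454 probe sets (41.6%), 4537 higher (19.9%) and 4917 lower (21.6%). NAA was used at 10 µM and naxillin at 50 µM, so that the values are set side by side and the difference between the changes holds the dose as well as the compound. A test of that difference, the naxillin change minus the NAA change, called 6898 probe sets (30.3%), 3437 higher (15.1%) and 3461 lower (15.2%). Under poly-A scaling the split was 1555 higher and 8673 lower, with a median of all probe sets of -0.32 log2 against 0.0101 before. The changes with the 2 compounds share no arrays. Of the 185 naxillin rises, 51 were also called higher with NAA, which is 27.6% of the naxillin rises and 1.12% of the NAA rises. Among the 335 naxillin falls, 214 were also called lower with NAA, 63.9% of the naxillin falls and 4.35% of the NAA falls. A further 49 rose with naxillin and fell with NAA, and 25 fell with naxillin and rose with NAA. The difference itself was called for 273 of the 520 probe sets that changed with naxillin. Choosing probe sets by their naxillin change favours such a call, since that change is a part of the difference.

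GH3.1 and LBD29 had higher levels with NAA at both times, without a called difference in their change. GH3.1 was at 11.35, 10.72 and 11.20 after 2 h of NAA and at 12.46, 12.42 and 12.49 after 6 h, all above every naxillin array. Its rise of 1.36 log2 with NAA and 1.59 with naxillin differed by 0.23 log2, which was not called (adjusted p = 0.566). LBD29 was at 11.91 to 12.38 and then at 12.27 to 12.50 with NAA, and the difference of its changes, 0.63 log2, was not called either (adjusted p = 0.117). PUCHI went with NAA from 8.14, 7.58 and 8.32 to 11.19, 11.48 and 11.35, a rise of 3.33 log2 against 0.83 with naxillin. The difference was -2.50 log2 (adjusted p = 1.35e-05). CR4 and GH3.17 also rose with NAA, with differences of -1.19 log2 (adjusted p = 0.000757) and -1.46 log2 (adjusted p = 0.000409).

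For 5 of the 12 largest rises and 8 of the 12 largest falls the change differed between the compounds, beside 30.3% of all probe sets. These genes were chosen for a large naxillin change, which is a part of the tested difference, so that the shares are not comparable. BGLU46 fell by 0.80 log2 with NAA, AT1G08670 by 1.10 and AT1G61590 by 0.88, each with a called difference (adjusted p = 0.000917, 0.000156 and 0.000444). AT5G55050 went the other way, with 8.76, 9.60 and 9.43 after 2 h and 10.14, 10.44 and 10.47 after 6 h of NAA, a rise of 1.09 log2 where it fell with naxillin. Its difference was -2.90 log2 (adjusted p = 8.98e-06). XTH21 was at 4.49, 4.36 and 4.49 after 2 h of NAA, below every naxillin array, and its changes differed by -1.65 log2 (adjusted p = 9.33e-05). With NAA, MSRB9 fell by 4.17 log2 and XTH18 fell by 3.16 log2, further than with naxillin. Their differences were 1.74 log2 (adjusted p = 0.0332) and 1.44 log2 (adjusted p = 0.020). The difference of MSRB9 was lost without naxillin 2 h replicate 1 (0.0735), naxillin 6 h replicate 3 (0.0676), NAA 2 h replicate 2 (0.0867), NAA 2 h replicate 3 (0.0723), NAA 6 h replicate 1 (0.0735), NAA 6 h replicate 2 (0.0515) or NAA 6 h replicate 3 (0.0504), and under poly-A scaling (0.0649). That of XTH18 was lost without NAA 2 h replicate 2 (0.0537) or NAA 6 h replicate 1 (0.0553).

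Genes of growth and division changed differently with the compounds. The difference was called lower for 25 of the 27 mitosis genes (median -1.71 log2), 7 of the 8 DNA replication genes (-1.51), 44 of 48 and 74 of 84 ribosomal protein genes (-1.26 and -1.22) and 45 of 47 ribosome assembly factors (-1.78), beside a background of 15.2% called lower. None of these genes was called between the naxillin times, beside 2.29% of all probe sets. With NAA 27 of the 27 mitosis genes and 8 of the 8 DNA replication genes were called higher, beside a background of 19.9%. Haspin went from 4.75, 4.89 and 5.02 to 7.18, 6.82 and 6.93. Photosynthesis genes went the other way, with the difference called higher for 10 of 11 (median 1.42 log2) against a background of 15.1%. With NAA 10 of the 11 were called lower (median -1.16 log2), beside a background of 21.6%, and with naxillin 0 were called. For 18 detoxification enzymes the difference was called higher for 9 and lower for 1, with a median of 0.72 log2. With NAA 11 of the 18 were called lower and 1 higher, and with naxillin 2 lower and 0 higher. Under poly-A scaling the difference was called higher for 5 of the 18 and lower for 3, with a median of 0.39. In the GH3 list the median difference of 0.23 log2 turned to -0.10 under poly-A scaling.

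**Figure D5:**
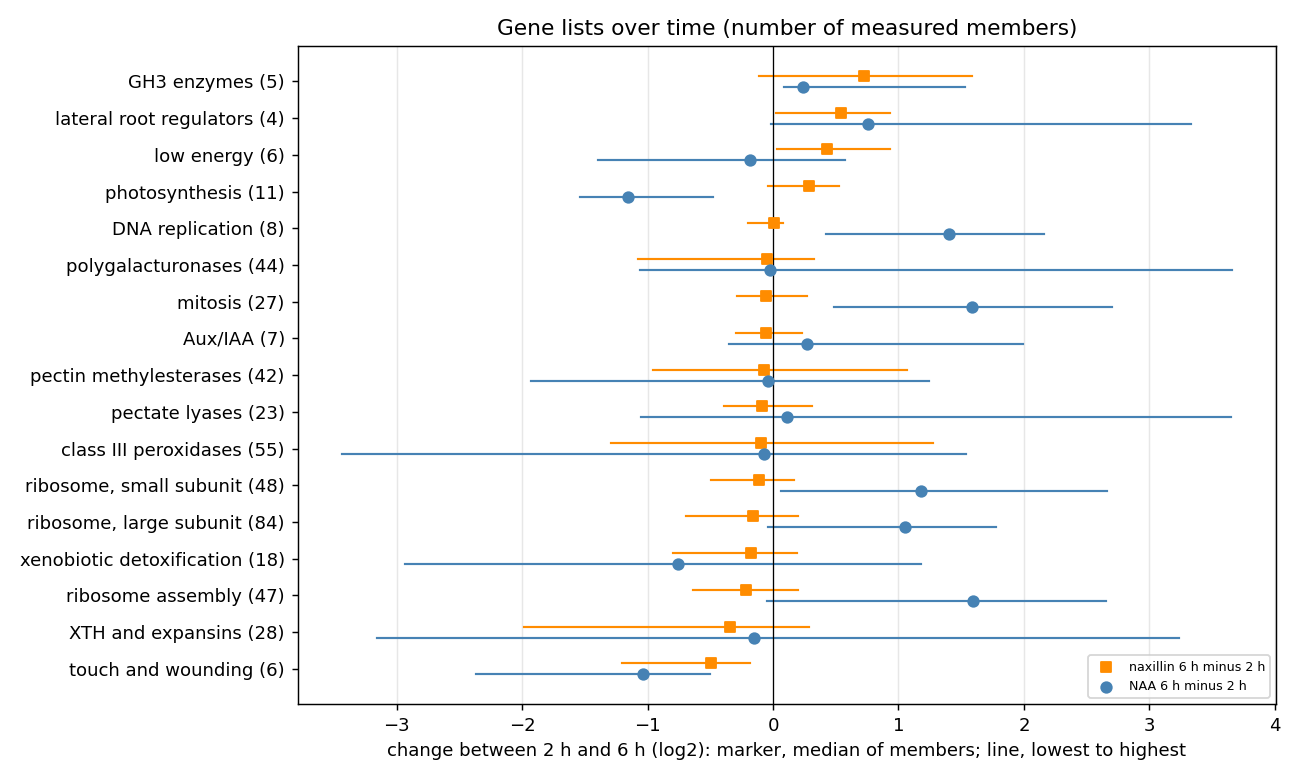
Change between 2 h and 6 h (horizontal axis, log2) for gene lists with at least 4 measured members (vertical axis, number of members in brackets), with naxillin (orange) and with NAA (blue); markers are medians of the members and lines run from the lowest to the highest member. With naxillin the medians lie between -0.49 and 0.73 log2, and with NAA those of mitosis, DNA replication and the ribosome lists lie above 1.

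The largest differences between the compounds belonged to genes that were not called between the naxillin times. AT3G53980 was at 13.85 to 14.03 in all 6 naxillin arrays, among the brightest probe sets, and went with NAA from 13.71, 13.85 and 13.75 to 7.79, 8.51 and 7.55, a difference of 5.83 log2 (adjusted p = 2.63e-09). AT4G30450 was at 11.83 to 12.71 with naxillin and fell with NAA by 5.33 log2. Differences of AT4G11190 and AT3G62040 were 4.43 and 4.38 log2. In the other direction AT3G57950 was at 3.67 to 3.98 in the naxillin arrays and went with NAA from 3.79, 3.82 and 4.03 to 9.24, 9.47 and 9.00, a difference of -5.21 log2 (adjusted p = 4.11e-10). PR-1-LIKE, named for its likeness to a pathogenesis-related protein, differed by -5.18 log2, AT1G05577 by -5.16 and AT2G19970 by -5.16. AT2G19970 varied widely among naxillin arrays, from 5.91 to 8.47.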

How the data were processed

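Total RNA of 15 root samples was measured on Affymetrix ATH1 arrays. The deposited values are log2 expression values, made with RMA in affy 1.36.0 per the submitters' processing notes; RMA corrects background, applies quantile normalization and summarises probe sets, and whether a filter followed is not given in the sources used here. Per the labels, 2 µg of RNA was spiked with bacterial transcripts before labelling. Of 22810 probe sets the 64 control ones were left out. The platform annotation gave 13513 of the 22746 tested probe sets exactly 1 gene, 503 several and 8730 none; 13436 of the first matched a RefSeq locus (TAIR10.1 names only). A gene with several probe sets was taken from the one of highest overall mean, and list counts cover named members only.

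limma 3.58.1 in R 4.3.3 fitted 1 mean per group to all 15 arrays (10 residual degrees of freedom), and p was adjusted by Benjamini-Hochberg over 22746 probe sets, called under 0.05, two-sided. The fit was tested on simulated data. Named genes were the 12 largest rises and falls whose arrays do not overlap, the 4 largest differences between the compounds each way, and, per list, the largest called changes (at most 4) or else the 2 with the smallest p. The comparison, members and lists were chosen with earlier results of these data known; of 33 lists, those for auxin transport, nitrate, suberin, endodermis, xylem, phloem, root tip and SAUR genes had no named probe set. Alternatives were a replicate block, the arrays of a contrast alone, a trended robust prior, array weights, quantile, median or poly-A spike-in scaling, no dim probe sets, stricter thresholds and leaving out each array. Leaving out replicate 3 of every group was added after seeing the data. Figures were drawn with matplotlib 3.10.9.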

Additional observations from a re-analysis of the deposited data

Results flagged for a closer look

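Of the 71 genes named by rule, 47 changed differently over time with naxillin than with NAA by limma's test of the difference (naxillin change minus NAA change, log2, adjusted p under 0.05), and 30.3% of all probe sets did. The shares are not comparable, since 8 of the 71 genes were chosen for the size of that difference. Others were chosen for a large naxillin change, which is a part of that difference. The 47 genes stand here because of that difference alone, and no cause was tested.

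Among the largest naxillin rises, the difference was 1.62 for AT2G36690, 0.87 for AT5G67430, 1.92 for BGLU46, 2.16 for AT1G08670 and 1.91 for AT1G61590. That of AT5G67430 was lost without naxillin 2 h replicate 3 (adjusted p = 0.0558), naxillin 6 h replicate 1 (0.0565), naxillin 6 h replicate 2 (0.0533), NAA 2 h replicate 1 (0.0516) or NAA 6 h replicate 3 (0.0598). Among the largest falls it was 1.74 for MSRB9, 1.44 for XTH18 and 1.42 for AT5G02230, which fell further with NAA. It was -1.65 for XTH21, -2.90 for AT5G55050, -1.07 for AT4G12580, -2.36 for LAC16 and -2.10 for AT4G33905. The extremes were -5.21 for AT3G57950, -5.18 for PR-1-LIKE, -5.16 for AT1G05577, -5.16 for AT2G19970, 4.38 for AT3G62040, 4.43 for AT4G11190, 4.92 for AT4G30450 and 5.83 for AT3G53980.

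Differences of auxin and lateral root genes were -2.50 for PUCHI, -0.68 for IAA18 and 0.33 for AIM1. Genes of division and replication had -0.72 for AT5G26680, -1.78 for ICU2, -1.82 for Haspin and -1.24 for AT2G22610. Ribosomal protein genes had -0.43 for AT5G09490, -1.11 for AT2G45710, -1.75 for AT2G32220 and -1.59 for AT2G44120, and the assembly factors -1.98 for AT5G66540 and -1.54 for AT5G65900. Metabolic genes had 0.64 for D2HGDH, 1.76 for BHLH101, 3.52 for BCAT4, 2.24 for AT2G31790, 1.05 for HCT, 0.81 for PRK and 1.86 for PSBW. Wall and detoxification genes had 1.39 for EXPA7, 0.57 for AT5G51890, -0.84 for AT3G53190, -0.41 for AT1G02460, 0.85 for UGT73B4 and 0.80 for UGT73B5. Small differences depended on single arrays, on the scaling and on the fit. Under poly-A scaling the difference of AIM1 was 0.0049 (adjusted p = 0.979), and calls were lost for D2HGDH (0.224), PRK (0.0894), AT5G51890 (0.17), UGT73B4 (0.0836), UGT73B5 (0.118), MSRB9 (0.0649) and AT5G67430 (0.101). With array weights the calls of AT3G53190 (0.052) and AT1G02460 (0.0613) were lost. The trended robust prior ended the calls of AT1G02460 (0.0682) and AIM1 (0.0514). Quantile normalization ended the calls of AT1G02460 (0.0578) and D2HGDH (0.0564), as did the arrays of the contrast alone (0.054 and 0.0639). Without replicate 3 of every group the calls of AT4G12580 (0.104), MSRB9 (0.0613), AIM1 (0.297) and PRK (0.0827) were lost. So were those of AT5G09490 (0.179), AT3G53190 (0.102), AT1G02460 (0.108) and UGT73B4 (0.0695). AIM1 lost its call without naxillin 2 h replicate 1 (0.0515), naxillin 2 h replicate 3 (0.0656), naxillin 6 h replicate 1 (0.0516), naxillin 6 h replicate 2 (0.0564), NAA 2 h replicate 3 (0.0663) or NAA 6 h replicate 3 (0.0698). EXPA7 lost it without naxillin 2 h replicate 3 (0.0545) or naxillin 6 h replicate 1 (0.0559). D2HGDH lost it in 7 of the 12 fits without 1 array (adjusted p up to 0.102) and AT1G02460 in 9 of 12 (up to 0.111).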

How the results depend on the processing

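With 3 arrays a group, the number of calls between 2 h and 6 h of naxillin depends on how the spread is estimated. Against 520 probe sets (185 higher, 335 lower), the arrays of the contrast alone gave 44 (9 and 35), limma's array weights 4579 (2120 and 2459), with weights from 0.414 on naxillin 6 h replicate 3 to 9.21 on naxillin 6 h replicate 1, and poly-A scaling 1170 (76 and 1094). An adjusted p under 0.01 left 120 (28 and 92), at least 2-fold 116 (26 and 90), and leaving out replicate 3 of every group 53 (17 and 36). Without 1 array the totals ran from 198 to 574, the rises from 44 to 214 and the falls from 149 to 360. The replicate block gave 1048 (434 and 614). Deviations of same-numbered naxillin 2 h and 6 h arrays correlated at 0.44, -0.19 and 0.59, which does not settle whether the numbers pair the samples. The labels do not say that a number marks a shared experiment, so that the block was kept as an alternative only. Quantile normalization, median centring, the trended robust prior and leaving out dim probe sets (14100 remained) stayed within 1.5 times.

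Of 32 named genes called, 6 were called on the 6 naxillin arrays alone (GH3.1, AT5G17340, AT4G10270, XTH21, AT5G55050 and PRN), 11 without replicate 3 of every group and 14 in each of the 6 fits without 1 naxillin array. GH3.1, AT5G17340 and AT4G10270 were called under every alternative, and XTH21 under every one but the dim filter, which left it out. No change reversed among called genes. Leaving out 1 array gave up to 2 called falls among the pectin methylesterases and up to 1 each among the class III peroxidases, root hair markers, large subunit proteins and ribosome assembly factors, where the full fit called 0.

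For the difference between the compounds, 6898 calls became 4449 at an adjusted p under 0.01 (2043 higher) and 2902 at 2-fold or more (1225 and 1677), and poly-A scaling gave 1555 higher and 8673 lower. Signal over background was not recorded in the values used here, so that low values near 4 log2 have no stated detection limit.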

Other observations

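One called gene had naxillin arrays that overlapped between the times, and it was chosen here after its values were seen. AT5G61590 had a mean of 8.92 ± 0.76 (SD, n = 3) at 2 h and 10.10 ± 0.32 at 6 h, against 10.34 before treatment. It rose by 1.18 ± 0.28 log2 (SE, limma's test, adjusted p = 0.0455).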
